A study of Homo sapiens with 61 samples.

Results

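The 28 genes described here carry out or control cholesterol synthesis, uptake, transport and release in human neurons made from an established stem cell line. They were taken from a list of sterol pathway genes, whose symbols were matched to the gene identifiers of the count tables through GENCODE 29. All 28 were found among the 58440 identifiers of each table, and all 28 passed the filter on low counts in both experiments. The list holds 5 regulators, 7 enzymes of the mevalonate part of the pathway, 11 enzymes of the sterol part and 5 genes of transport, lipoprotein handling and efflux. The 18 enzymes together are called the synthesis genes below.

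The 61 RNA libraries came from WTC11, an induced pluripotent stem cell line of human origin, after its conversion to neurons by the transcription factor NGN2. In experiment 1 each line carried NGN2 in a doxycycline-driven cassette, and was either wild type (WT), a knockout (KO) of DLK or of LZK alone, or a knockout of both (DLK LZK double KO, or double KO for short). Each of these had 4 untreated and 4 vincristine libraries. DLK (gene MAP3K12) and LZK (gene MAP3K13) are related kinases of the neuronal injury response. In experiment 2 the neurons carried the CRISPR interference machinery, which lowers transcription of a targeted gene, and a lentiviral guide RNA (gRNA) that was a scrambled control (Control gRNA) or was directed at ATF2 or at JUN, a pair of transcription factors. Control gRNA and JUN gRNA had 5 libraries per treatment, and ATF2 gRNA had 5 untreated and 4 vincristine libraries. On day 14 cultures received 5 nM vincristine, a drug that disrupts microtubules, or DMSO (called untreated here, as in the labels) for 16 hours. The number of clones behind each knockout line and the number of guides per target are not given in the sources used here. Nothing says that replicates came from separate differentiations, so p-values measure the spread between these samples, which may be technical.

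As background, cells adjust sterol synthesis through SREBP-2, the product of SREBF2. Its precursor is held in the endoplasmic reticulum with the escort protein SCAP by INSIG proteins when sterols are plentiful, and is carried to the Golgi and cut into an active transcription factor when sterols are scarce. Active SREBP-2 binds sterol regulatory elements, often beside NF-Y boxes, at genes of nearly every step of the pathway and at INSIG1. Efflux genes such as ABCA1 are driven by the liver X receptors, which respond to oxysterols. Neurons make sterols themselves and also take up cholesterol on lipoproteins that carry apolipoprotein E.

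RefSeq promoter windows (assembly GRCh38.p14) were matched by symbol to 25 of the 28 genes, and the 250 bases before each start site were searched on both strands. SQLE, ACAT2 and FDFT1 had no window. They are among the members with large responses to vincristine, so the motif counts do not cover them. The NF-Y box CCAAT was found in 18 of the 25, beside 37.0% of all 27305 genes with a window. The 9-letter sterol regulatory element TCACNCCAC was found in 1 of the 25, SREBF2, beside 1.09% of all genes, and its last 8 letters, CACNCCAC, in 5 of the 25 beside 5.89%. The 8-letter form lies within the 9-letter form, so SREBF2 counts for both. Neither the AP-1 site TGANTCA, found in 8.06% of all genes, nor the ATF/CREB site TGACGTCA, found in 2.03%, was found in any of the 25. These are matches of letters, not measured binding. The stretches below are shown because they belong to members with large responses to vincristine or, for NSDHL and MVD, because they hold 3 or more boxes, and SREBF2 because it holds the 9-letter element. They are written on the strand of the gene, with capitals marking the NF-Y box, read on either strand, and the sterol elements.
INSIG1 chr7:155297660-155297722 (+): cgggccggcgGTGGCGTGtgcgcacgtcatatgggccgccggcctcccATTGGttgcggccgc
STARD4 chr5:111512651-111512706 (-): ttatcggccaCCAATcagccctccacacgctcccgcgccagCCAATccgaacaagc
MSMO1 chr4:165327474-165327607 (+): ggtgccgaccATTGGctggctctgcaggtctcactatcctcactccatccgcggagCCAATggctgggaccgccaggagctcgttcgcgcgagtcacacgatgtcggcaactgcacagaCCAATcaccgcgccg
MVD chr16:88663162-88663260 (-): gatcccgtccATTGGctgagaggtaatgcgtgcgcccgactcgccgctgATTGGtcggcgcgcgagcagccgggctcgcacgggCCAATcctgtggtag
NSDHL chrX:152830825-152830966 (+): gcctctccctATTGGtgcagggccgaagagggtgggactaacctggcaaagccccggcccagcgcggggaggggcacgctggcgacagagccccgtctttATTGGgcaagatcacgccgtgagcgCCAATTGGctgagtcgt
DHCR7 chr11:71448436-71448497 (-): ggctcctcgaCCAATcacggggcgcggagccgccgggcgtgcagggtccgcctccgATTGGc
IDI1 chr10:1049222-1049344 (-): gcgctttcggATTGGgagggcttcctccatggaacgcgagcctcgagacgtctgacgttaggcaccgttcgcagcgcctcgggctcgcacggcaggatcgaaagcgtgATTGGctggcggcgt
LIPG chr18:49561945-49561969 (+): caaggtgtgaCCAATcagagcccag
ABCA1 chr9:104928366-104928393 (-): cctccaccccCACCCCACccacctcccc
SREBF2 chr22:41832962-41832990 (+): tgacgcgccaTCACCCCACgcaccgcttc
In the NSDHL stretch the letters CCAATTGG read as a box on both strands. ABCA1 held a CACNCCAC match and no NF-Y box in its window.

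The libraries of experiment 1 held 8.41 to 14.6 M counts and those of experiment 2 held 38.9 to 88.4 M, where M is the prefix mega. In untreated libraries MAP3K12 stood at 23.7 to 29.7 CPM in DLK KO and 17.4 to 21.8 in double KO against 89.7 to 94.3 in WT, and MAP3K13 at 30.1 to 34.2 CPM in LZK KO and 26.7 to 31.0 in double KO against 96.8 to 101 in WT. CPM are counts of a gene per M counts of its library, after TMM scaling of the library totals. ATF2 stood at 0.106 to 0.877 CPM with its guide against 111 to 158 CPM in Control gRNA, and JUN at 2.24 to 3.47 CPM with its guide against 81.7 to 97.8. The labels do not say which part of each kinase gene was deleted, so the kinase counts bear on the labels only by their direction. In ATF2 gRNA JUN was also low, at 18.2 to 22.5 CPM. ATF2 with the JUN guide, at 144 to 166 CPM, overlapped Control gRNA. JUN read 48.2 to 60.5 CPM in DLK KO and 36.5 to 41.9 in double KO against 131 to 151 in WT. In LZK KO it read 100 to 133 CPM, which overlapped WT. ATF2 read 64.5 to 77.8 CPM in DLK KO against 121 to 151 in WT, and overlapped WT in the other knockouts. Whether these shifts bear on the sterol results was not tested. All 10 neuron markers were at or above 1 CPM on average in every group, while of 7 astrocyte markers GFAP, AQP4, ALDH1L1 and GJA1 were under 1 CPM in every group. The other astrocyte markers were not all low: SLC1A2, a glutamate transporter, averaged 179 to 356 CPM over the groups, SLC1A3 0.538 to 6.16 CPM and S100B 0.166 to 2.57 CPM. One library, WT vincristine replicate 4, stood apart. Its log2 levels fell by 0.26 per 10 percentage points of gene GC content relative to its group mean, while the other 3 WT vincristine libraries rose by 0.06 to 0.12. SREBF1, SREBF2, SCAP, MVK, DHCR7 and APOE, with GC contents from 57.1% to 68.5%, read lowest of their group in that library. ABCA1 and LIPG also read lowest there, with GC contents of 45.5% and 44.3%. INSIG1, ACAT2, FDFT1, IDI1 and MSMO1, with GC contents from 38.1% to 50.2%, read highest there. Results in WT that depend on this library are therefore given with and without it. Without it, 22 members in place of 23 were called for the vincristine effect in WT.

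In untreated WT the 6 most abundant of the 28 genes per length were synthesis enzymes. HMGCS1, which makes hydroxymethylglutaryl-CoA, led with 319 ± 29.5 CPM per kb (SD, n = 4), and ACAT2, the thiolase of the first step, followed with 136 ± 17.6. FDFT1, squalene synthase, stood at 113 ± 10.4 CPM per kb. In untreated Control gRNA HMGCS1 also led, with 223 ± 4.05 CPM per kb (SD, n = 5), but SREBF2 came second with 109 ± 2.83, ahead of ACAT2 with 97.7 ± 4.70. SREBF2 stood at 63.1 ± 2.43 CPM per kb in untreated WT and SREBF1, which encodes SREBP-1 and chiefly serves fatty acid genes, at 5.02 ± 0.22. At the low end were the lipoprotein-side genes APOE, with 2.46 ± 0.37 CPM per kb, LIPG with 1.12 ± 0.15 and ABCA1 with 0.97 ± 0.17. The last pair did not differ beyond their spread. LIPG had the fewest counts, down to 10 in a library, and 23 of the 28 genes had at least 100 counts in every library.

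The first question was what vincristine did to these genes in the unmodified and control neurons. Vincristine lowered sterol synthesis RNA at nearly every step of the pathway in both. Of the 28 genes, 22 fell and 1 rose in WT, where 14.5% of all 18235 genes tested were called lower and 15.7% higher. In Control gRNA 22 fell and 2 rose, where 18.1% of all 20759 genes were called lower and 17.1% higher. A gene is called when its p-value, adjusted over all genes of the comparison, is under 0.05. The median log2 fold change over the 28 genes was -0.79 in WT and -0.81 in Control gRNA, against -0.00 and 0.03 over all genes tested. Among the 18 synthesis genes 17 fell in each of the control lines, and CYP51A1, lanosterol demethylase, was not called in either. The 22 lower genes of WT and the 22 of Control gRNA had 21 in common, which is 95.5% of each list. These lists share no library. Lists that each hold 22 of the 28 genes must overlap in large part, and the overlap over all tested genes was not counted. Because these are bulk samples, fewer cells of a type and less RNA per cell cannot be told apart.

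**Figure D1:**
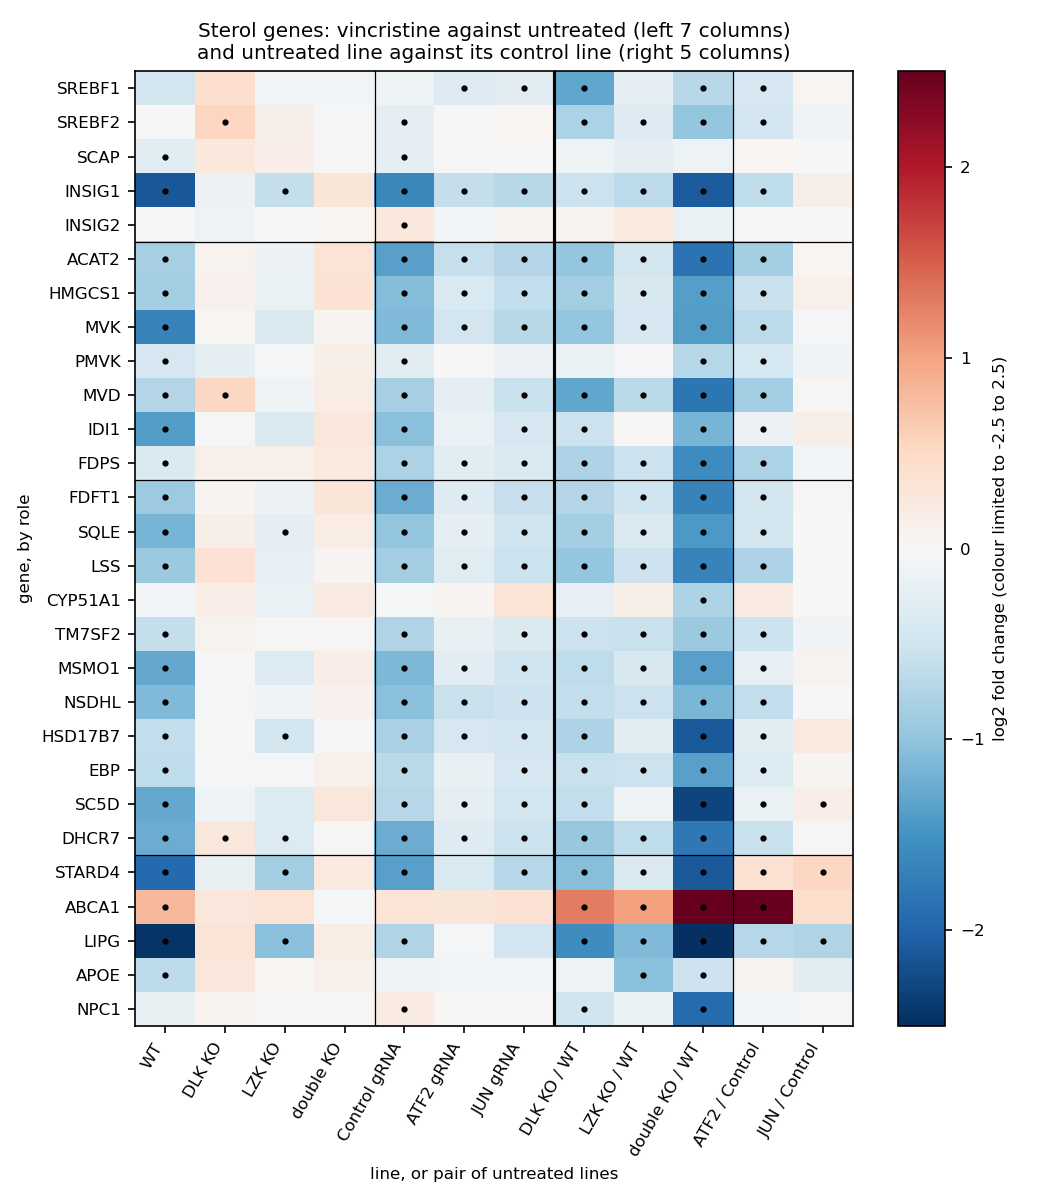
Log2 fold change of the 28 sterol genes (rows, ordered as regulators, mevalonate enzymes, sterol enzymes, and transport and efflux genes) for vincristine against untreated in 7 lines (left columns) and for 5 untreated lines against their control line (right columns); colour gives the log2 fold change, limited to -2.5 to 2.5, and a dot marks a gene called at an adjusted p under 0.05. The WT and Control gRNA columns hold 22 lower genes each, the vincristine column of double KO holds no called gene, and ABCA1 runs opposite to most genes in the untreated knockout columns.

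Of the regulators, INSIG1 fell the most in both control lines. Gene positions here and below are those of GENCODE 29 on GRCh38, and all genes named with one are protein-coding. INSIG1 (ENSG00000186480.12, chr7:155297776-155310235, + strand) retains SCAP and the SREBP precursors in the endoplasmic reticulum and is itself a target of SREBP-2. Its level in untreated WT was 205, 198, 194 and 158 CPM in replicates 1 to 4, and after vincristine 37.9, 48.4, 39.6 and 48.7 CPM. In Control gRNA it went from 198, 192, 184, 178 and 183 CPM in the 5 untreated libraries to 56.1, 57.8, 63.4, 60.8 and 66.2 CPM. Every vincristine library was below every untreated one in both lines. The log2 fold change was -2.11 ± 0.094 (SE) in WT, with an adjusted p = 1.44e-19 from edgeR, and -1.62 ± 0.079 in Control gRNA, with an adjusted p = 2.35e-16.

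The RNA of the transcription factors themselves moved less than that of INSIG1. SREBF2 (ENSG00000198911.11, chr22:41833079-41907308, + strand) stood at 449.9, 491, 482 and 484 CPM in untreated WT and at 561, 514, 517 and 314 after vincristine, where the last value is the library that stands apart. The groups overlapped, and the log2 fold change of -0.00 ± 0.11 was not called (adjusted p = 0.995). Without that library it was 0.15 ± 0.073, also not called, with an adjusted p of 0.106. In Control gRNA, SREBF2 went from 809, 859, 806, 830.4 and 825 to 654, 718, 711, 696 and 707 CPM. Those libraries did not overlap, and the log2 fold change of -0.24 ± 0.035 passed the test with adjusted p = 1.56e-07. It was smaller than the falls of the 17 called synthesis genes, which ran from -0.27 to -1.36. The smallest of these, that of PMVK, was close to it, and the order was not tested.

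SREBF1 (ENSG00000072310.16, chr17:17810399-17837002, - strand) read 40.9, 41.6, 41.2 and 37.7 CPM in untreated WT and 33.6, 36.4, 31.0 and 15.6 after vincristine. The groups did not overlap, but the library that stands apart was far below the other 3, and the log2 fold change of -0.46 ± 0.19 was not called (adjusted p = 0.0728). With an offset for the GC trend of each library it was -0.40 and called, and without replicate 4 of WT vincristine it was -0.26 and not called. In Control gRNA the SREBF1 levels of 18.3, 23.8, 19.4, 22.6 and 19.4 CPM untreated overlapped those of 17.2, 19.3, 19.9, 19.3 and 19.7 CPM after vincristine, with a log2 fold change of -0.12 ± 0.088 that was not called. SCAP, the escort of the precursors, was called lower in both lines, with log2 fold changes of -0.27 ± 0.10 in WT and -0.22 ± 0.049 in Control gRNA. The WT call was lost without replicate 4 of WT vincristine, where the log2 fold change of SCAP was -0.13 and its adjusted p 0.226. INSIG2, the constitutive relative of INSIG1, did not pass the test in WT (-0.02 ± 0.10) and rose in Control gRNA (0.26 ± 0.066). With the GC offset that INSIG2 value was 0.08 and no longer called.

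All 7 mevalonate enzymes fell in both control lines. MVK (ENSG00000110921.13, chr12:109573255-109598117, + strand), mevalonate kinase, fell the most of them in WT, from 71.9, 79.7, 74.0 and 70.2 CPM to 23.7, 27.5, 28.6 and 13.0 CPM. In Control gRNA MVK went from 56.6, 62.1, 54.3, 56.5 and 50.6 to 23.2, 28.8, 24.1, 25.8 and 28.6 CPM. Neither pair of groups overlapped. The log2 fold changes were -1.66 ± 0.15 in WT and -1.10 ± 0.081 in Control gRNA, with adjusted p-values of 1.54e-10 and 6.54e-15. Without WT vincristine replicate 4, whose MVK level was the lowest, the WT value was -1.47 ± 0.11.

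IDI1 (ENSG00000067064.11, chr10:1039152-1049170, - strand), the isomerase that yields dimethylallyl diphosphate, showed the same separation. It read 261, 231, 245 and 188 CPM in untreated WT and 74.6, 98.3, 71.7 and 106 CPM after vincristine. Its Control gRNA values were 161, 153, 159.9, 151 and 157 CPM untreated and 76.5, 74.9, 78.1, 73.4 and 75.1 CPM treated. The log2 fold changes of IDI1 were -1.40 ± 0.15 in WT and -1.05 ± 0.050 in Control gRNA, larger falls than those of the neighbouring steps PMVK, phosphomevalonate kinase (-0.42 and -0.27), and MVD, the decarboxylase (-0.73 and -0.83). The order of these steps was not tested. ACAT2 (ENSG00000120437.8, chr6:159760328-159779055, + strand) was the synthesis gene with the largest fall in Control gRNA, from 451, 426, 406, 399 and 418 CPM to 163, 166, 171, 165 and 156 CPM. In WT the level of ACAT2 went from 639, 589, 640.0 and 479 CPM to 276, 364, 278 and 394 CPM. The groups stood apart in both lines, and the log2 fold changes were -1.36 ± 0.065 in Control gRNA and -0.84 ± 0.11 in WT. HMGCS1 had log2 fold changes of -0.84 ± 0.10 in WT and -1.08 ± 0.049 in Control gRNA. FDPS, farnesyl diphosphate synthase, had -0.35 ± 0.066 and -0.80 ± 0.059.

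In the sterol part of the pathway 10 of 11 enzymes fell in both lines. FDFT1 (ENSG00000079459.12, chr8:11795573-11839309, + strand) commits farnesyl diphosphate to sterols. It stood at 618, 588, 628 and 509 CPM in untreated WT and 269, 335, 278 and 361 after vincristine, and in Control gRNA at 472, 450.3, 448, 446 and 447 CPM untreated and 186, 191, 195, 192 and 195 CPM treated. SQLE (ENSG00000104549.11, chr8:124998497-125022283, + strand), squalene epoxidase, adds the oxygen that allows the ring closure and is a known control point. Its WT libraries read 373, 359, 347 and 316 CPM untreated and 140.4, 186, 145 and 149 treated, and its Control gRNA libraries 258, 266, 245, 246 and 243 CPM untreated and 126, 119.6, 125, 130.1 and 130.3 CPM treated. For each of these enzymes the highest treated library lay below the lowest untreated one. The log2 fold changes of FDFT1 were -0.92 ± 0.079 in WT and -1.24 ± 0.045 in Control gRNA, and those of SQLE were -1.17 ± 0.074 and -0.996 ± 0.043. The largest of their adjusted p-values was 1.18e-11, for FDFT1 in WT.

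Further along, MSMO1 (ENSG00000052802.12, chr4:165327623-165343160, + strand) removes methyl groups from lanosterol products. It went from 222, 203, 202 and 173 to 69.1, 90.6, 71.5 and 99.3 CPM in WT and from 200.1, 182, 189, 185 and 188 to 86.8, 84.7, 89.4, 88.3 and 87.3 CPM in Control gRNA. DHCR7 (ENSG00000172893.15, chr11:71428193-71452868, - strand), the reductase that yields cholesterol in its branch, went from 118, 131, 119 and 106 to 50.6, 57.6, 49.5 and 43.3 CPM in WT and from 136, 151, 137, 132 and 140.0 to 50.5, 64.3, 63.2, 55.8 and 62.5 CPM in Control gRNA. Both genes stood apart between treatments in both lines. The log2 fold changes were -1.28 ± 0.13 and -1.11 ± 0.044 for MSMO1, and -1.24 ± 0.087 and -1.23 ± 0.091 for DHCR7, in WT and Control gRNA in that order. The other called enzymes, LSS, TM7SF2, NSDHL, HSD17B7, EBP and SC5D, had log2 fold changes from -1.27 to -0.60 in WT and from -1.04 to -0.67 in Control gRNA. CYP51A1 had log2 fold changes of -0.06 ± 0.088 and -0.05 ± 0.14, with the groups overlapping in both lines. Of the exon bases of CYP51A1, 78.8% are shared with LRRD1 on the same strand, and how reads on shared exons were counted is not given in the sources used here, so its counts are uncertain. CYP51A1 also has 3 annotated pseudogene copies, FDPS 8 and HSD17B7 2, between which reads could be split.

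Transport genes divided into falling and rising members. STARD4 (ENSG00000164211.12, chr5:111496033-111512590, - strand), a soluble protein that moves sterol between membranes, fell from 105, 89.7, 91.4 and 71.1 CPM to 20.9, 26.8, 21.0 and 24.4 CPM in WT and from 45.3, 41.7, 53.3, 44.9 and 41.1 CPM to 16.7, 18.4, 18.6, 17.6 and 17.4 CPM in Control gRNA. LIPG (ENSG00000101670.11, chr18:49560699-49599182, + strand), a secreted phospholipase that acts on lipoproteins, had the largest fold change of the 28 genes in WT, from 17.1, 13.0, 15.5 and 13.0 CPM to 2.43, 3.96, 2.26 and 1.94 CPM. In Control gRNA it went from 6.92, 7.09, 5.67, 5.28 and 5.46 to 3.62, 3.73, 3.44, 3.51 and 3.70 CPM. No treated library of STARD4 or LIPG reached an untreated one. The log2 fold changes were -1.94 ± 0.12 and -1.35 ± 0.11 for STARD4, and -2.45 ± 0.19 and -0.75 ± 0.18 for LIPG. The values of LIPG in WT rest on 18 to 44 counts per treated library.

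ABCA1 (ENSG00000165029.15, chr9:104781002-104928237, - strand), which exports cholesterol to apolipoproteins, was the 1 member that rose in WT. Its WT libraries read 9.94, 13.3, 11.6 and 9.04 CPM untreated and 21.5, 18.6, 20.3 and 16.6 CPM after vincristine, with no overlap and a log2 fold change of 0.81 ± 0.11 (adjusted p = 5.26e-07). In Control gRNA its values of 3.28, 6.24, 6.88, 7.29 and 6.29 CPM untreated and 9.14, 7.89, 7.88, 7.15 and 5.96 CPM treated overlapped, and 0.35 ± 0.26 was not called. APOE (ENSG00000130203.9, chr19:44905754-44909393, + strand), the main apolipoprotein of the brain, was rare in these neurons. It read 6.50, 5.31, 5.20 and 4.57 CPM in untreated WT and 3.65, 4.05, 3.48 and 2.48 CPM after vincristine, a log2 fold change of -0.65 ± 0.17 (adjusted p = 0.00373) on 23 to 74 counts per library. In Control gRNA its 4.59, 4.60, 3.63, 4.09 and 2.94 CPM and 3.29, 3.75, 4.41, 3.06 and 4.07 CPM overlapped, with -0.09 ± 0.20. NPC1, which releases cholesterol from lysosomes, was not called in WT (-0.19 ± 0.090) and rose (0.21 ± 0.058) in Control gRNA.

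Across the 28 genes the log2 fold changes of WT and Control gRNA had a Pearson correlation of 0.77. This describes genes that share their libraries within each experiment. The sign was the same for 26 of the 28 genes. Neither the correlation nor the shared sign was computed over all tested genes.

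**Figure D2:**
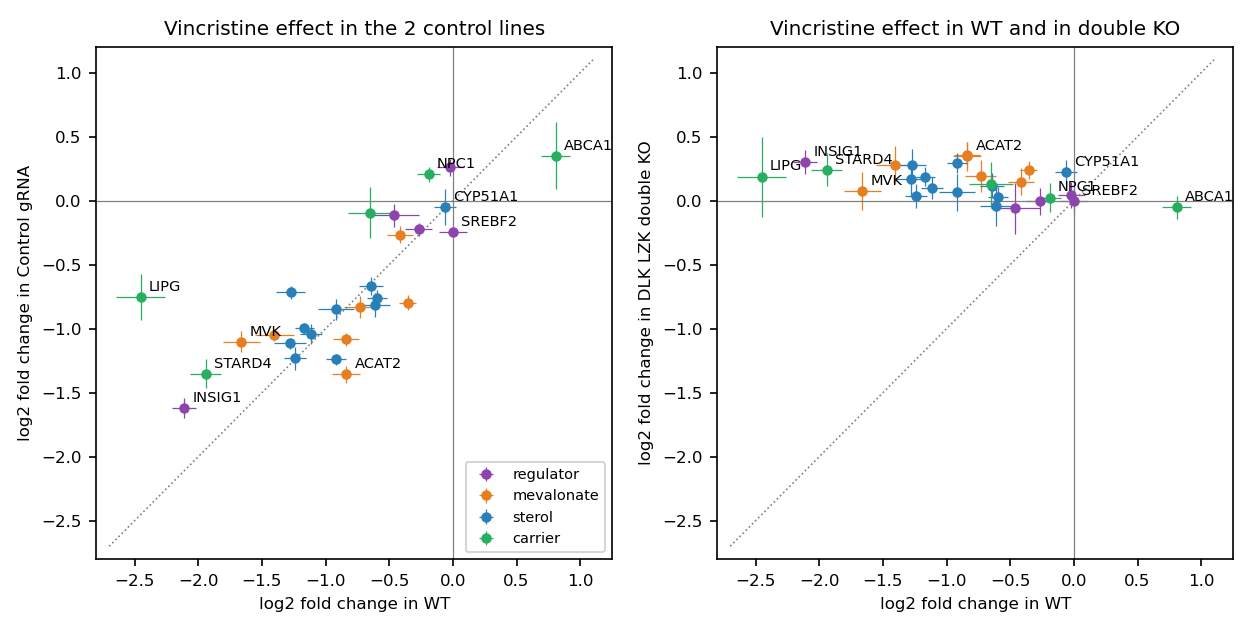
Log2 fold change after vincristine of each of the 28 genes in WT (x axis) against Control gRNA (left panel, y axis) and against double KO (right panel, y axis); points are genes coloured by role, bars are SE, and the dotted line marks equal values. The synthesis genes (mevalonate and sterol; carrier marks transport and efflux genes) lie on both sides of the line of equal values in the left panel and between -0.04 and 0.36 on the y axis in the right panel.

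The second question was whether the knockouts changed this response. In DLK KO, 3 of the 28 genes rose and none fell (background 4.24% higher and 2.28% lower). They were SREBF2, with a log2 fold change of 0.54 ± 0.11, MVD with 0.53 ± 0.12, and DHCR7 with 0.29 ± 0.087. The call of DHCR7 was lost in 10 of 15 alternatives. In a fit of only the DLK KO libraries, 6 members were called, all higher, where 13.3% of all genes were called higher. In LZK KO 6 members fell and none rose (background 1.61% lower and 2.27% higher). These were LIPG (-1.05), STARD4 (-0.88), INSIG1 (-0.60), HSD17B7 (-0.45), DHCR7 (-0.34) and SQLE (-0.25). A fit of only the LZK KO libraries called 3, all lower, where 0.288% of all genes were called lower, and SQLE lost its call in 12 of 15 alternatives.

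The response itself differed between these lines and WT by the interaction term of the fit. For DLK KO minus WT the difference was above 0 and called in 23 members and below 0 and called in 1, ABCA1 (background 9.95% and 9.41%). For LZK KO minus WT it was above 0 in 18 and below 0 in 1, again ABCA1 (background 5.88% and 6.53%). A difference above 0 here means a smaller fall or a rise compared with WT. The largest were those of LIPG, 2.78 ± 0.28 for DLK KO and 1.40 ± 0.30 for LZK KO, and of INSIG1, 1.97 ± 0.13 and 1.51 ± 0.13. Both sets of differences use the same WT libraries. The call of ABCA1 for LZK KO (-0.46 ± 0.15, adjusted p = 0.0432) was lost in 14 of 23 alternatives. Without WT vincristine replicate 4 the counts were 23 above and 1 below for DLK KO and 18 above and 1 below for LZK KO.

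INSIG1 levels show the pattern. In DLK KO they were 123, 111, 140.4 and 144 CPM untreated and 112, 118, 122 and 118 CPM after vincristine, which overlap. In LZK KO they were 122, 123, 112 and 120.2 CPM and 85.9, 62.7, 85.0 and 80.2 CPM, which do not. STARD4 in DLK KO read 38.8, 32.6, 51.2 and 48.1 CPM untreated and 35.0, 39.8, 37.2 and 37.1 CPM treated, which overlap. In LZK KO it read 75.5, 77.1, 53.6 and 74.1 CPM untreated and 41.7, 36.3, 40.2 and 33.8 CPM treated, which do not. SREBF2 rose in DLK KO from 260.4, 274, 286 and 285 CPM to 404, 414, 383 and 408 CPM without overlap. The treated level of SREBF2 in DLK KO stayed under the untreated WT level of 449.9 to 491 CPM.

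In double KO no member fell with vincristine. No member was called by edgeR, and 12 of 18235 genes were (0.0658%, or 0.00548% higher and 0.0603% lower). At an unadjusted p under 0.05 there were 8 members, all higher, where 2.64% of all genes were higher and 3.37% lower, and DESeq2 also called 0. The libraries of the treatments did not overlap in 10 members, all higher with vincristine, where 4.26% of all genes were apart in that direction and 5.69% in the other. A fit of only the 8 double KO libraries called 11 members, all higher, with log2 fold changes from 0.17 to 0.37, where 3.62% of all genes were called higher and 2.68% lower. The 11 members were ACAT2, FDFT1, FDPS, HMGCS1, IDI1, INSIG1, MSMO1, MVD, SC5D, SQLE and STARD4. INSIG1, for example, read 44.0, 43.6, 48.4 and 42.7 CPM untreated and 55.9, 55.2, 53.4 and 56.1 CPM after vincristine. STARD4 read 21.6, 21.0, 22.6 and 18.3 CPM and 25.0, 24.7, 24.1 and 25.2 CPM, and SQLE 129.6, 128, 132 and 126 CPM and 146, 156, 139 and 144 CPM. SREBF2 was not among them, with 241, 253, 243 and 242 CPM untreated and 243, 245, 247 and 242 CPM treated.

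The response of double KO differed from that of WT in 22 members, 21 above 0 and ABCA1 below (background 9.21% and 10.2%). Among the synthesis genes 17 of 18 passed this test, the exception being CYP51A1. The largest differences were those of LIPG (2.64 ± 0.37), INSIG1 (2.41 ± 0.13) and STARD4 (2.18 ± 0.18). For ABCA1 the difference was -0.86 ± 0.14. Without WT vincristine replicate 4 there were 22 above and 1 below. HSD17B7, with 0.58 ± 0.20, lost its call in 14 of 23 alternatives. The untreated level of most of these genes was already low in double KO, as given below, so the response is measured from another starting level.

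**Figure D3:**
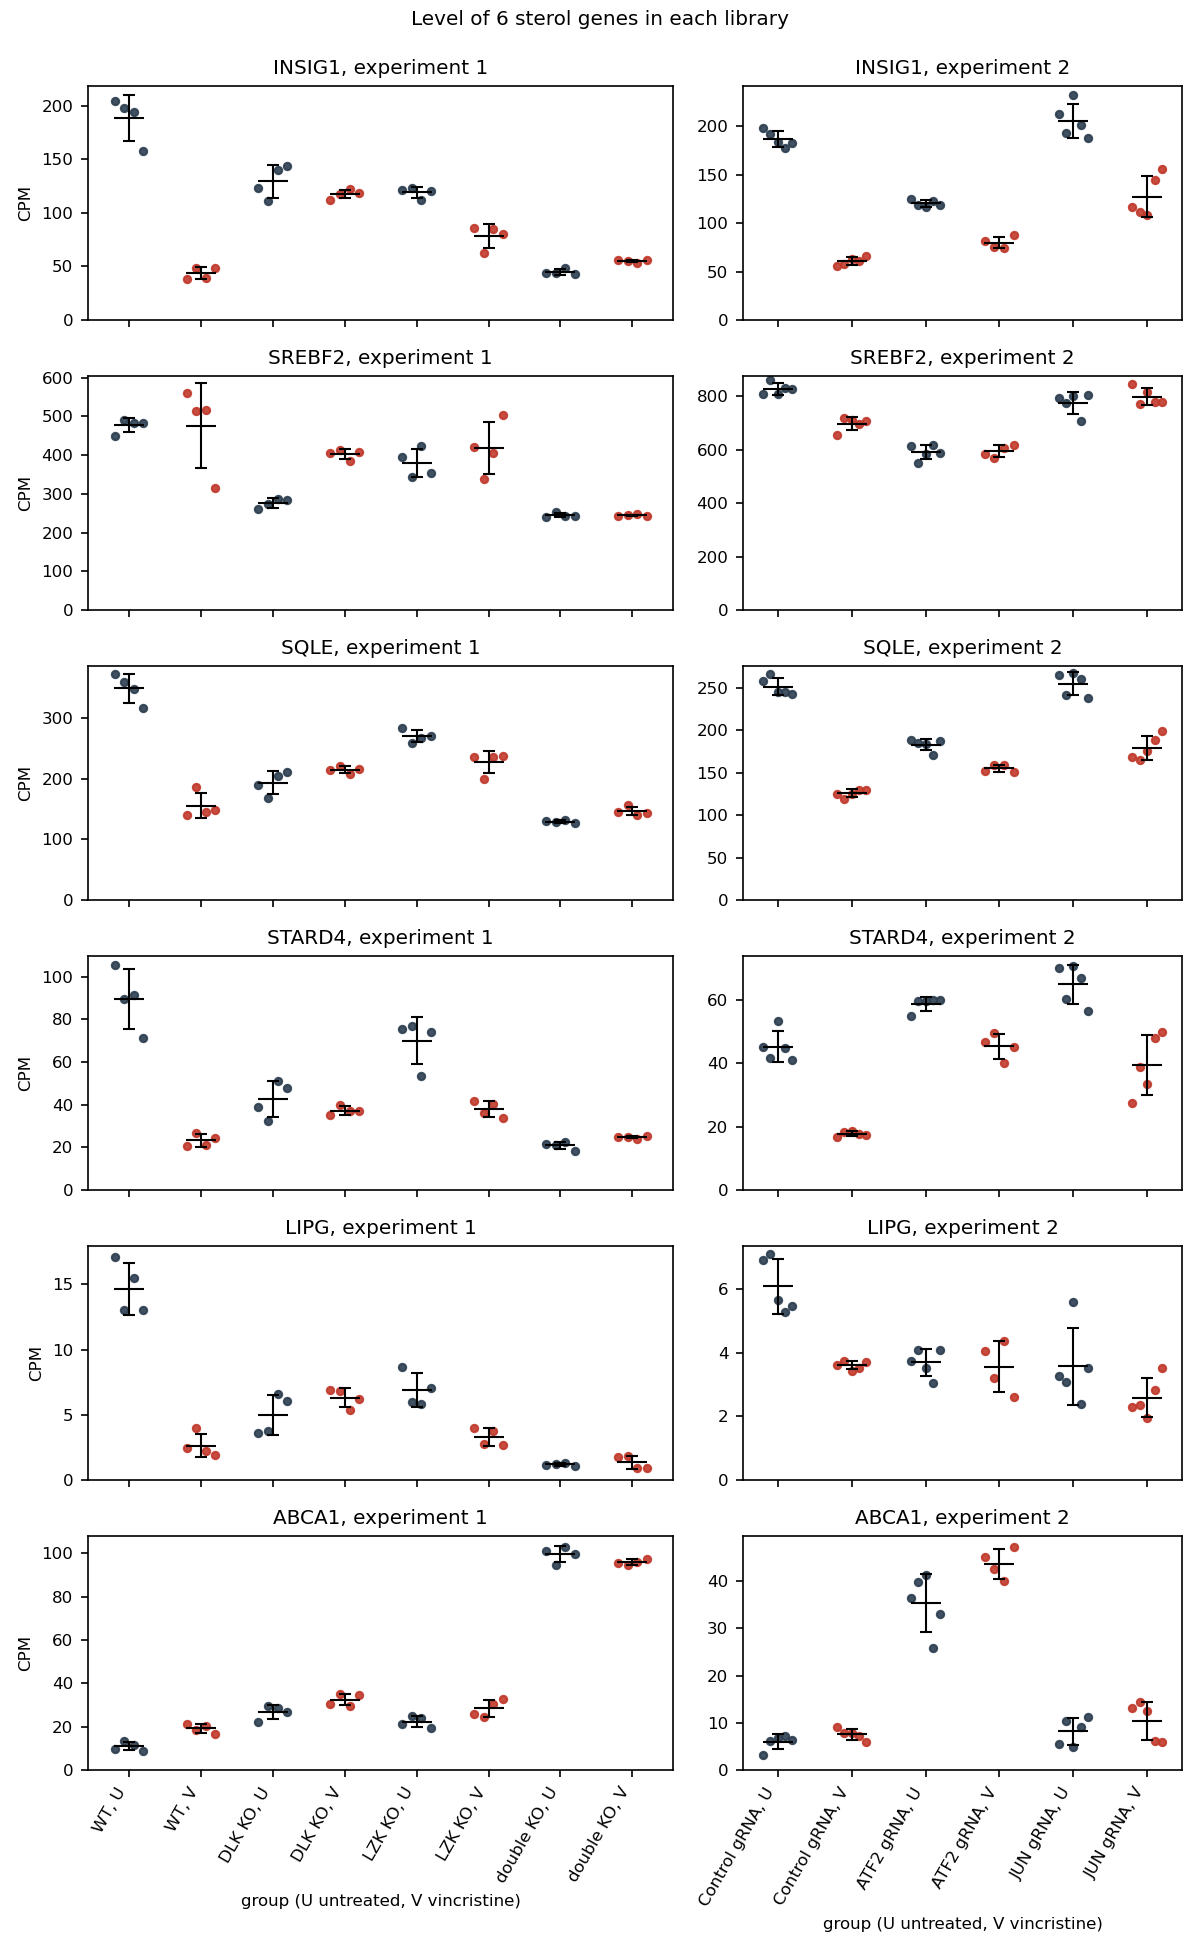
CPM of INSIG1, SREBF2, SQLE, STARD4, LIPG and ABCA1 in each library (points) by group (x axis; U untreated, dark; V vincristine, red), with the mean and SD as bars, for experiment 1 (left) and experiment 2 (right). INSIG1, SQLE and STARD4 fall with vincristine in WT and Control gRNA, and double KO sits low for these genes in both treatments while ABCA1 sits high.

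In experiment 2 the question was how the response differed with the ATF2 or the JUN guide, where JUN RNA was low with both. With the ATF2 guide 14 members fell after vincristine and none rose (background 4.22% lower and 1.88% higher), and with the JUN guide 19 fell and none rose (background 8.31% and 7.58%). The median over the 28 genes was -0.25 with the ATF2 guide and -0.47 with the JUN guide, against -0.02 and 0.01 over all genes. Without ATF2 gRNA vincristine replicate 4 the count of 14 dropped to 9. INSIG1 went from 125, 118, 117, 123 and 119 CPM to 81.2, 75.6, 74.8 and 87.4 CPM with the ATF2 guide and from 213, 194, 233, 202 and 188 CPM to 116, 112, 109, 145 and 156 CPM with the JUN guide. Both lines show a fall without overlap, with log2 fold changes of -0.59 ± 0.083 and -0.69 ± 0.076.

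By the interaction term, 20 members had a called difference above 0 and 1 below for ATF2 gRNA minus Control gRNA (background 10.2% and 10.4%). For JUN gRNA minus Control gRNA 16 had a difference above 0 and none below (background 8.71% and 7.06%). The 16 were SREBF2, SCAP, INSIG1, STARD4 and 12 synthesis genes. For ATF2 the largest were INSIG1 (1.03 ± 0.11), STARD4 (0.98 ± 0.16) and FDFT1 (0.92 ± 0.064), and the 1 below 0 was INSIG2 (-0.32 ± 0.097), which was lost with the GC offset. For JUN they were INSIG1 (0.93 ± 0.11), DHCR7 (0.69 ± 0.13) and FDFT1 (0.66 ± 0.062). Both sets use the same Control gRNA libraries, and the response was not compared between the ATF2 and JUN guides. The untreated median over the 18 synthesis genes was already 70.6% of untreated Control gRNA with the ATF2 guide, against 102% with the JUN guide. After vincristine it was 59.4% with the ATF2 guide, 72.4% with the JUN guide and 52.8% in Control gRNA. The mean treated level was lower in Control gRNA than in ATF2 gRNA for 11 of the 18. The response with the ATF2 guide is thus measured from another starting level. SREBF2, which fell in Control gRNA, read 613, 550.1, 584, 616 and 588 CPM untreated and 585, 568, 605 and 617 treated with the ATF2 guide. With the JUN guide it read 791, 776, 801, 705 and 805 CPM and 845, 771, 816, 779 and 776 CPM. Neither change was called, and the difference in response from Control gRNA was 0.25 ± 0.051 for ATF2 and 0.28 ± 0.050 for JUN.

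The mean log2 CPM of the 18 synthesis genes in each library summarises these groups. It was 7.20 ± 0.11 (SD, n = 4) in untreated WT and 6.29 ± 0.12 after vincristine. The untreated and treated means were 6.47 ± 0.15 and 6.56 ± 0.026 for DLK KO and 6.82 ± 0.060 and 6.63 ± 0.051 for LZK KO. For double KO they were 5.74 ± 0.021 and 5.91 ± 0.045. The treated libraries of double KO, from 5.87 to 5.96, were all above its untreated ones, from 5.71 to 5.75. In experiment 2 it was 6.96 ± 0.049 and 6.07 ± 0.040 in Control gRNA (n = 5), 6.49 ± 0.040 (n = 5) and 6.20 ± 0.033 (n = 4) in ATF2 gRNA, and 7.00 ± 0.096 and 6.54 ± 0.13 in JUN gRNA (n = 5). No p-value is given for this mean because the genes were listed with results known.

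**Figure D4:**
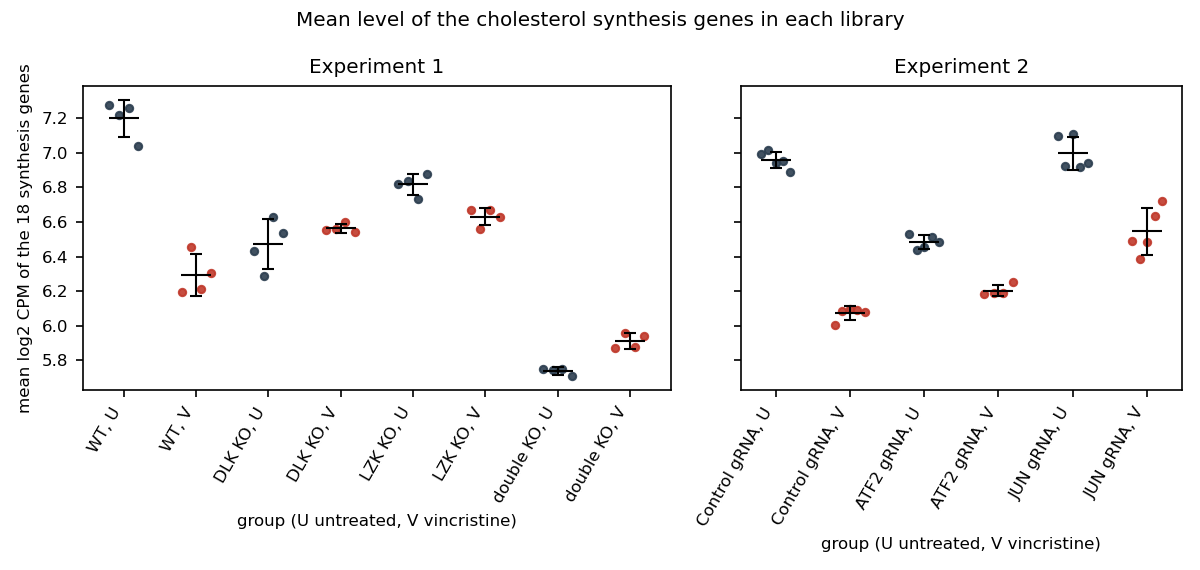
Mean log2 CPM of the 18 synthesis genes in each library (points) by group (x axis; U untreated, dark; V vincristine, red), with the mean and SD as bars, for experiment 1 (left) and experiment 2 (right). The mean drops from 7.20 to 6.29 in WT and from 6.96 to 6.07 in Control gRNA, and untreated double KO is the lowest group at 5.74.

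The third question was how the lines differed before vincristine. Loss of the kinases came with lower synthesis RNA in untreated neurons. Against WT, 22 members were lower and 1 higher in DLK KO (background 17.9% and 16.5%), 18 lower and 1 higher in LZK KO (background 16.8% and 17.1%), and 25 lower and 1 higher in double KO (background 22.1% and 23.6%). The higher member was ABCA1 each time. These comparisons share the untreated WT libraries, and those also serve the vincristine effect in WT. In double KO all 18 synthesis genes were lower, with a median log2 difference of -1.42, against -0.75 in DLK KO and -0.44 in LZK KO and 0.01 over all genes in each. The 2 members not called in double KO were SCAP and INSIG2.

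As a share of the untreated WT level, the median over the 18 synthesis genes was 37.4% in untreated double KO, from 20.4% for SC5D to 61.0% for PMVK. It was 59.4% in untreated DLK KO and 73.4% in untreated LZK KO. For comparison it was 54.4% in WT after vincristine. The mean level in untreated double KO was below that in vincristine-treated WT for 16 of the 18, all but MVK and IDI1. This order of levels was not tested.

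INSIG1 in untreated double KO, at 44.7 ± 2.53 CPM (SD, n = 4), stood beside 43.7 ± 5.70 in vincristine-treated WT and 189 ± 21.2 in untreated WT. Its log2 differences from WT were -0.54 ± 0.088 for DLK KO, -0.66 ± 0.089 for LZK KO and -2.08 ± 0.093 for double KO. SREBF2 was also lower in the knockouts, with log2 differences of -0.79 ± 0.11, -0.33 ± 0.11 and -0.96 ± 0.11 in the same order. SREBF1 was lower in DLK KO (-1.30 ± 0.20) and double KO (-0.69 ± 0.19) and not called in LZK KO (-0.25 ± 0.19).

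LIPG had the largest fall. It read 3.63, 3.79, 6.63 and 6.02 CPM in untreated DLK KO, 8.64, 6.01, 5.83 and 7.06 in LZK KO and 1.14, 1.203, 1.34 and 1.12 in double KO, all below the untreated WT range of 13.0 to 17.1 CPM. In double KO this was a log2 difference of -3.59 ± 0.22 on 11 to 16 counts per library. ABCA1 showed the opposite. It read 22.3, 29.4, 28.7 and 26.9 CPM in untreated DLK KO, 21.2, 24.9, 24.1 and 19.7 in LZK KO and 101, 94.4, 103 and 99.7 in double KO, all above the untreated WT range of 9.04 to 13.3 CPM. The log2 differences of ABCA1 were 1.28 ± 0.11, 1.03 ± 0.11 and 3.17 ± 0.11. STARD4 was lower in each line, with -1.07 ± 0.12, -0.36 ± 0.11 and -2.10 ± 0.12, and APOE was lower in LZK KO (-1.04 ± 0.19) and double KO (-0.52 ± 0.17).

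Some of these genes lie in chromosome stretches whose other genes were also shifted. In double KO the 40 tested genes nearest SC5D on chromosome 11 had a median log2 difference of -0.84 from WT, with 30 called lower. Around LIPG on chromosome 18 the median was -0.82 with 29 called lower, and around NPC1 on the same chromosome it was -0.30 with 20 called lower. SC5D (-2.29), LIPG (-3.59) and NPC1 (-1.93) were lower than these medians, but what part of their difference goes with the stretch was not tested. Around ABCA1 on chromosome 9 the median was 0.26 in double KO, and around PMVK on chromosome 1 it was -0.27. In LZK KO the stretch around STARD4 had a median of 0.32 and that around HMGCS1 -0.30. No other member had a neighbourhood median farther from 0 than that of ABCA1 in any knockout line.

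In experiment 2 the ATF2 guide came with lower synthesis RNA in untreated neurons. With the JUN guide 1 synthesis gene was called higher and none lower. Of the 28 genes 21 were lower and 2 higher with the ATF2 guide (background 20.2% and 19.7%). With the JUN guide 1 was lower and 2 higher (background 5.46% and 5.78%), and in a fit of only those groups 1 was lower and 5 higher, where 6.95% and 7.28% of all genes were. Among the synthesis genes 17 of 18 were lower with the ATF2 guide, all but CYP51A1, and their median share of the untreated Control gRNA level was 70.6%. With the JUN guide that share was 102%, from 94.0% to 119%. The largest fall with the ATF2 guide was that of ACAT2, from 451, 426, 406, 399 and 418 CPM to 250.4, 229, 231, 231 and 220.1 CPM, or -0.85 ± 0.065. The log2 differences of SREBF2 and INSIG1 were -0.48 ± 0.035 and -0.63 ± 0.077.

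ABCA1 again ran opposite. It read 3.28, 6.24, 6.88, 7.29 and 6.29 CPM in untreated Control gRNA and 36.4, 39.8, 41.2, 25.9 and 33.1 CPM with the ATF2 guide, a log2 difference of 2.55 ± 0.26 without overlap. With the JUN guide it read 5.61, 10.4, 4.93, 9.06 and 11.2 CPM, which overlapped Control gRNA. In the stretch around ABCA1 the median difference with the ATF2 guide was 0.27, and around CYP51A1 it was 0.44. STARD4 did not follow the enzymes here. Its untreated level was 54.7, 59.7, 59.5, 59.9 and 59.9 CPM with the ATF2 guide and 70.0, 60.2, 70.5, 66.9 and 56.5 CPM with the JUN guide, both above the 41.1 to 53.3 CPM of Control gRNA. The differences were 0.38 ± 0.11 and 0.52 ± 0.11. The ATF2 one was not called with GC offsets, at 0.17. LIPG was lower with both guides, at -0.72 ± 0.18 and -0.76 ± 0.18, and SC5D was higher with the JUN guide (0.17 ± 0.050), which was lost with GC offsets.

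Markers of other cell states moved with some of these groups. The summed CPM of 5 pluripotent stem cell markers was 2.81 to 3.35 in untreated WT and 52.9 to 59.1 in untreated double KO, and 9.58 to 13.5 in untreated Control gRNA and 33.8 to 40.2 in untreated ATF2 gRNA. In all 4 of these groups POU5F1, NANOG and TDGF1 were under 1 CPM and LIN28A or DPPA4 made up most of the sum. In untreated DLK KO this sum was 10.3 to 14.3 CPM and in untreated LZK KO 13.2 to 18.8, also above WT. The 5 neural progenitor markers, mostly NES, summed to 779 to 824 CPM in untreated WT and 1055 to 2094 after vincristine, and to 1326 to 1418 and 2559 to 2655 in Control gRNA. In untreated DLK KO they summed to 226 to 295 CPM and in untreated double KO to 290 to 303. NES had a mean of 92.1 CPM in untreated double KO against 717 in WT. VIM, from the same list, went the other way, with a mean of 189 CPM against 51.9 in WT. It was the most abundant of the 5 in untreated double KO, so the lower sum there is not a fall of every marker. In ATF2 gRNA they summed to 763 to 838 CPM untreated and 729 to 838 treated. The 3 dividing-cell markers summed to 59.4 to 67.6 CPM in untreated LZK KO against 10.5 to 12.3 in WT. Their part in the sterol results was not tested.

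Genes next to the pathway were taken from lists made by role. Of 16 genes of the fatty acid arm, which are largely SREBP targets, 11 fell and 1 rose after vincristine in WT and 13 fell and 2 rose in Control gRNA, with medians of -0.53 and -0.52. Of all genes 14.5% fell and 15.7% rose in WT, and 18.1% fell and 17.1% rose in Control gRNA. In double KO none of the 16 was called, where only 0.0658% of all genes were called in either direction. In DLK KO 3 rose (background 4.24%) and in LZK KO 4 fell (background 1.61%). In ATF2 gRNA 9 fell (background 4.22%) and in JUN gRNA 12 fell (background 8.31%). The log2 fold changes of ELOVL6, a fatty acid elongase, were -1.14 ± 0.065 in WT and -0.86 ± 0.042 in Control gRNA. Those of SCD, the stearoyl-CoA desaturase, were -0.79 ± 0.066 and -1.40 ± 0.051, and those of TMEM97, a sterol-regulated membrane protein listed with this arm, -1.21 ± 0.11 and -1.16 ± 0.067. In untreated double KO 14 of the 16 were lower than in WT and 2 higher (background 22.1% and 23.6%), with TMEM97 at -2.45 and SCD at -1.82.

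The isoprenoid branch leaves the pathway at farnesyl diphosphate toward ubiquinone, dolichol and protein prenylation. None of its 12 genes fell in WT and 2 rose, and in Control gRNA 1 fell and 2 rose. The shares that rose were near those of all genes, 15.7% in WT and 17.1% in Control gRNA, and the shares that fell were below those of 14.5% and 18.1%. Its median was 0.07 in WT and 0.02 in Control gRNA, and COQ2, an enzyme of ubiquinone synthesis, rose by 0.90 ± 0.18 and 0.48 ± 0.12. Of 8 genes that process or degrade the SREBP system 2 fell in WT (background 14.5%), and in Control gRNA 3 fell and 2 rose (background 18.1% and 17.1%). RNF145, a ubiquitin ligase of that system, was the one with the larger changes (-0.67 ± 0.061 and -0.82 ± 0.066). UBE2G2, a ubiquitin-conjugating enzyme, had -0.31 ± 0.057 in WT and -0.39 ± 0.040 in Control gRNA. Of 8 genes of sterol sensing and export 2 fell in WT, and in Control gRNA 3 fell and 1 rose, against the same backgrounds, with LPCAT3, a phospholipid-remodelling enzyme, at -1.27 ± 0.11 and -0.95 ± 0.081.

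Of 13 genes for lipoprotein receptors, lysosomal release, transfer and storage, 5 fell and 2 rose in WT (background 14.5% and 15.7%) and 5 fell and 4 rose in Control gRNA (background 18.1% and 17.1%). The share that rose in WT was near that of all genes. LRP8, a neuronal receptor for apolipoprotein E and reelin, fell in both (-0.72 ± 0.088 and -0.75 ± 0.041), as did LIPA, the lysosomal acid lipase (-0.92 ± 0.11 and -0.64 ± 0.052). CLU, the apolipoprotein clusterin, rose by 0.45 ± 0.10 and 0.70 ± 0.079. The median of this list was 0.08 in WT and -0.02 in Control gRNA.

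Counting limits touch a few members. ACAT2 shares 52.3% of its exon bases with SOD2, SOD2-OT1 and TCP1 on the opposite strand, FDPS 18.6% with RUSC1-AS1, HMGCS1 15.0% and IDI1 14.8% with antisense genes. The kit keeps strand, but the strand setting of the counting is not given in the sources used here, so for these genes reads from the other strand cannot be told apart. Genes such as SCAP, INSIG1, SQLE, MSMO1, NSDHL, EBP, SC5D, DHCR7, ABCA1 and LIPG share no exon base with another gene.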

How the data were processed

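The authors deposited raw counts, meaning whole-number read counts per gene, in 1 table for each of the 2 experiments. RNA was poly(A)-selected and sequenced as stranded paired reads, per the labels' protocols. The submitters' processing notes name cutadapt 3.4, STAR, featureCounts, Subread 2.0.1 and GRCh38, and the file headers name duplicate marking. The strand setting and the use of marked duplicates are not given in the sources used here. All count columns were used. Of 58440 identifiers, 58320 matched a symbol in GENCODE 29, with no row naming no gene.

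Each experiment was fitted with edgeR 4.0.16 (R 4.3.3, quasi-likelihood, robust, TMM factors, 1 mean per group, filterByExpr), and p-values were adjusted over all tested genes (Benjamini-Hochberg) for each of 17 comparisons. A gene was called at an adjusted p under 0.05, and SE was taken as the absolute log2 fold change over the root of the F statistic. The fit was tested on simulated data. Precision is set by depth, given in the report, and by 4 or 5 libraries per group. No replicate pair was a duplicate, and replicate numbers did not pair the libraries (correlations from -0.18 to 0.11). Alternatives were DESeq2 1.42.0, RLE factors, no filter, a mean of at least 1 CPM, blocking on the replicate number, a fit restricted to the compared groups, leaving out each library and, added after seeing the data, GC content offsets.

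The members and lists were chosen with earlier results of these data known. Values in every library are given for SREBF1, SREBF2, INSIG1, LIPG, ABCA1, APOE and the 8 other members called the same way in WT and Control gRNA with the largest mean change, and up to 3 genes are named per neighbouring list. The 8-letter sterol element was also added after seeing the data.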

Additional observations from a re-analysis of the deposited data

Results flagged for a closer look

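The response to vincristine differed from that of the control line, by the interaction term in edgeR, in each of the 5 comparisons that could be made. For DLK KO minus WT 24 members were called, with LIPG at 2.78, INSIG1 at 1.97 and STARD4 at 1.75 on the log2 scale. For LZK KO minus WT 19 were called, led by INSIG1 at 1.51, LIPG at 1.40 and MVK at 1.29. Double KO minus WT had 22, led by LIPG at 2.64, INSIG1 at 2.41 and STARD4 at 2.18. ATF2 gRNA minus Control gRNA had 21, led by INSIG1 at 1.03, STARD4 at 0.98 and FDFT1 at 0.92. JUN gRNA minus Control gRNA had 16, led by INSIG1 at 0.93, DHCR7 at 0.69 and FDFT1 at 0.66. Many other genes were called in these tests too. The shares of all genes called above and below 0 were 9.95% and 9.41% for DLK KO and 5.88% and 6.53% for LZK KO. For double KO they were 9.21% and 10.2%. With the ATF2 guide they were 10.2% and 10.4%, and with the JUN guide 8.71% and 7.06%.

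In 196 groups of values, 14 named members in 14 groups, 13 held a library far from the others, and chance gives about 1 in 20. SREBF1 read 37.7 CPM in WT untreated replicate 4 and 17.2 in Control gRNA vincristine replicate 1. SREBF2 read 704.9 CPM in JUN gRNA untreated replicate 4, and ABCA1 3.28 in Control gRNA untreated replicate 1. STARD4 read 53.6 CPM in LZK KO untreated replicate 3 and 54.7 in ATF2 gRNA untreated replicate 1, and MVK 66.1 in LZK KO untreated replicate 3. IDI1 stood at 129.0 CPM in LZK KO vincristine replicate 4 and 136 in double KO vincristine replicate 4. SQLE stood at 199 CPM in LZK KO vincristine replicate 2 and 172 in ATF2 gRNA untreated replicate 4. FDFT1 stood at 472 CPM in Control gRNA untreated replicate 1 and 355 in ATF2 gRNA untreated replicate 1.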

How the results depend on the processing

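Of 285 called member values 255 remained called under every alternative, and of 5370 values under alternatives 146 were not called and 0 changed direction. The values no longer called numbered 0 with DESeq2, 4 with RLE factors, 10 with no filter, 1 with a mean of at least 1 CPM, 6 with the replicate block, 10 in fits of only the groups compared and 11 with GC offsets. Replicate numbers did not pair the libraries. With the replicate block the count of called members for vincristine was 22 for WT, 2 for DLK KO and 4 for LZK KO, and for the other comparisons it was within 1 of the count without it. In fits of only the groups compared the counts were 6 for vincristine with DLK KO, 3 with LZK KO and 11 with double KO, and 6 for untreated JUN gRNA. With no filter double KO had 1, HMGCS1. The cause was not tested. Leaving out 1 library at a time gave, for vincristine, 22 to 24 members in WT, 2 to 3 with DLK KO, 4 to 6 with LZK KO, 0 to 0 with double KO, 24 to 24 in Control gRNA, 9 to 14 in ATF2 gRNA and 18 to 21 in JUN gRNA. For the differences in response it gave 23 to 24 for DLK KO, 18 to 20 for LZK KO, 20 to 23 for double KO, 20 to 23 for ATF2 gRNA and 16 to 19 for JUN gRNA. For untreated lines it gave 23 to 24 for DLK KO, 18 to 20 for LZK KO, 25 to 26 for double KO, 22 to 23 for ATF2 gRNA and 2 to 6 for JUN gRNA. The 9 came without ATF2 gRNA vincristine replicate 4 and the 6 without JUN gRNA untreated replicate 5. Depth limits LIPG most, with 10 counts in its lowest library.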
